A study of Homo sapiens with 12 samples.

Results

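RNA of the nucleolar (NO) fraction was compared between 3 libraries of HEK UL1 KO cells and 3 libraries of HEK WT cells, over every gene outside rRNA. These 6 libraries belong to a series of 12, the others being the cytoplasmic-nuclear (CN) fraction of the same 2 genotypes with 3 replicates each. Both groups are HEK 293T, an immortalised line of human embryonic kidney origin grown in DMEM with serum and antibiotics. HEK WT is labelled wild-type. HEK UL1 KO is labelled HNRNPUL1 knock-out and is a line made with CRISPR-Cas9, with guides aimed at exons 2 and 3 of HNRNPUL1. The sources used here do not say whether this line grew from 1 cell, so the effect of the knockout and other differences between the lines cannot be told apart. The labels number the replicates but do not say whether they came from separate cultures, and p values therefore measure the spread between these libraries, which may be technical. The count table of the fraction lists 61163 entries. After 616 entries with rRNA symbols (mature rRNAs, their precursor and copies of these) were dropped, 60547 remained, and 34752 of them had enough counts to be tested.

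The nucleolus is the nuclear body in which RNA polymerase I transcribes ribosomal DNA and in which pre-rRNA is cleaved, modified and assembled with ribosomal proteins. Small nucleolar RNAs (snoRNA) work there: box C/D snoRNAs guide 2′-O-methylation, box H/ACA snoRNAs guide pseudouridylation, and a few of either class, such as U3, take part in pre-rRNA cleavage. Most human snoRNAs are cut out of the introns of host genes, many of which encode ribosomal proteins or are non-coding small nucleolar RNA host genes (SNHG). hnRNP UL1 is a member of the heterogeneous nuclear ribonucleoprotein family, RNA-binding proteins of the nucleus that act in transcription, splicing and export, and it has also been linked to the repair of DNA breaks.

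Levels are given as CPM, the counts of a gene per 1000000 counts outside rRNA in its library, after scaling by edgeR's TMM factors, and differences as the log2 fold change of HEK UL1 KO against HEK WT. Total counts ranged from 37141666 to 83019079 per library, and 55.3 to 65.1% of them fell on rRNA entries. One library stood apart. HEK WT replicate 3 correlated with HEK WT replicates 1 and 2 at Pearson r = 0.942 and 0.919 across genes on log2 CPM, while these 2 correlated at 0.968 with each other. Its closest library was HEK UL1 KO replicate 1 (r = 0.967). For this reason the main counts are given with and without HEK WT replicate 3. Markers of the HEK293 line were detected, with 10 of 10 tested, and the 8 fibroblast and 5 tested blood cell markers held no gene called by edgeR or DESeq2, with 1 and 0 at an unadjusted p under 0.05. The summed CPM of the fibroblast markers was 13.2 to 18.3 in HEK WT and 19.3 to 21.6 in HEK UL1 KO, and of blood cell markers 8.22 to 13.8 and 10.8 to 11.9. All 8 fibroblast markers were above 0, with a median log2 fold change of 0.47, and in the CN fraction 3 of the 5 tested there were called higher (edgeR, median 0.99). The part of these markers in the results was not tested. HBA1, a defining gene of red cells, had between 0 and 4 counts per library.

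HNRNPUL1 itself lies at 41262557 to 41307787 on chromosome 19 (GRCh38). Its level was 38.5, 53.01 and 24.3 CPM in the HEK WT libraries and 10.9, 9.90 and 9.15 CPM in the HEK UL1 KO libraries. All 3 HEK UL1 KO libraries were below all 3 HEK WT libraries, as the labels would have it. The log2 fold change was -1.95 (SE 0.307, adjusted p = 0.00487, edgeR). With total counts in place of TMM it was -1.39, with an adjusted p of 0.0913 (edgeR). An exact two-sided permutation test on log2 CPM gave p = 0.1, the smallest that 3 libraries against 3 allow. HNRNPUL1 RNA was still counted in each knockout library, and the counts do not show whether these transcripts carried the edit.

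Of the 34752 genes tested, 366 were called at an adjusted p under 0.05 (edgeR's quasi-likelihood test, Benjamini-Hochberg over all genes tested), which is 1.05%. In HEK UL1 KO, 152 genes were higher (0.437% of those tested) and 214 were lower (0.616%). The size of the log2 change was at least 1.10 among the higher genes, with a median of 1.73, and at least 1.09 among the lower genes, with a median of -1.55. The median over all genes tested was 0.04. CPM of the 2 genotypes did not overlap for 149 of the 152 higher and 209 of the 214 lower genes, while over all genes tested 11.4% were apart in the higher and 9.14% in the lower direction. At an unadjusted p under 0.05 there were 5473 genes (15.7%). The level of a bulk library cannot tell a lower level per cell from fewer cells with the RNA.

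The number of calls depended on HEK WT replicate 3. Without it, 9274 genes were called, 4509 higher and 4765 lower (25.8% of 35937 tested), and they included all 152 higher and 213 of the 214 lower genes, SLC47A2 being the exception. That library was singled out because it lay closest to a HEK UL1 KO library, and leaving it out can widen the gap between the genotypes. The remaining libraries are those of the main fit, so calls of this fit are no separate support. Leaving out each of the 6 libraries in turn, 36 of the higher and 46 of the lower genes were called the same way in every fit. DESeq2 called 1104 genes (4.32% of those it gave an adjusted p), 262 higher (1.03%) and 842 lower (3.30%). Scaling moved the result as well. With total counts in place of TMM the median of all genes tested shifted from 0.04 to 0.47, 27 genes were called, 18 higher and 9 lower, and all 366 genes kept their direction. TMM factors were 0.784, 0.648 and 1.20 in HEK WT and 1.33, 1.18 and 1.05 in HEK UL1 KO.

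**Figure D1:**
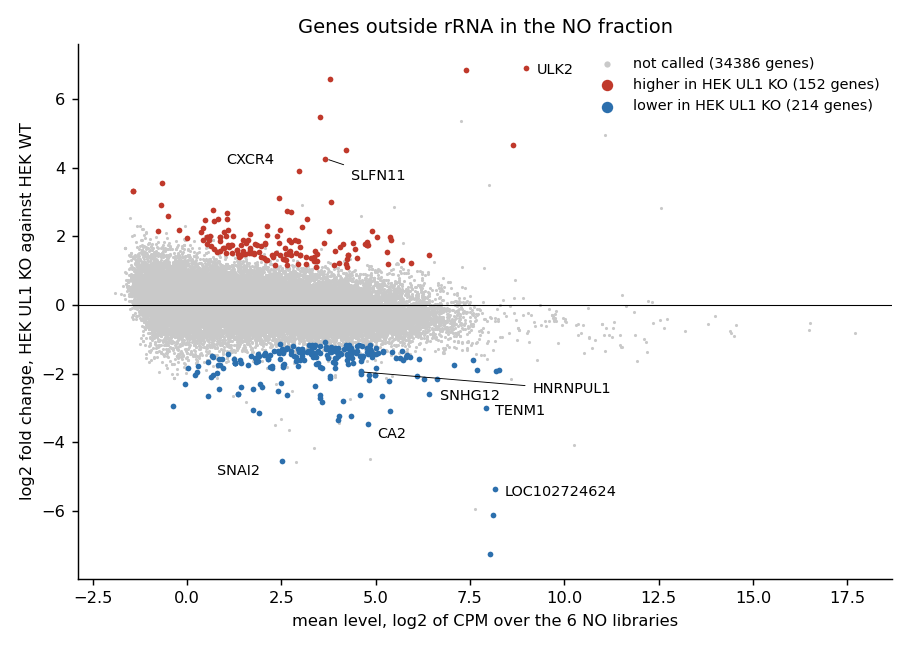
Log2 fold change of HEK UL1 KO against HEK WT (vertical axis) against the mean level as log2 of CPM (horizontal axis) for the 34752 genes tested in the NO fraction. Red points are the 152 genes called higher, blue points the 214 called lower and grey points the rest, and 9 genes are named. ULK2 and LOC102724624, at the outer edges, rest on single libraries or spread widely within HEK WT.

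The lower genes held many snoRNAs and the higher genes held none. Among those that fell most, 7 lie in the introns of 2 host genes on chromosome 1, and their sequences are shown because the call of each came together with that of its host. They are given 5′ to 3′ as DNA letters from the GRCh38 genome at GENCODE release 44 positions. Capitals mark the D box CTGA of the box C/D snoRNAs and the ACA box of the box H/ACA snoRNAs, which was found 3 bases from the 3′ end of SNORA61 and SNORA16A and not at that place in SNORA44. Those of SNHG12 lie on the minus strand, SNORD99 at chr1:28578749-28578822, SNORA61 at chr1:28579764-28579893, SNORA44 at chr1:28580381-28580512 and SNORA16A at chr1:28580920-28581056. Those of RABGGTB lie on the plus strand, SNORD45C at chr1:75787072-75787150, SNORD45A at chr1:75787889-75787972 and SNORD45B at chr1:75789477-75789548.
SNORD99: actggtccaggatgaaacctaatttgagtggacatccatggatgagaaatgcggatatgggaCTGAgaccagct
SNORA61: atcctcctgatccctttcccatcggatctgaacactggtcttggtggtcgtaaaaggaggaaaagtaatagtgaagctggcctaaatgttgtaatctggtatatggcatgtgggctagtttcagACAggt
SNORA44: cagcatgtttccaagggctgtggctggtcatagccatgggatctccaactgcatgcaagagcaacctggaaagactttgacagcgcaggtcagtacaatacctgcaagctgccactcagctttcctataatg
SNORA16A: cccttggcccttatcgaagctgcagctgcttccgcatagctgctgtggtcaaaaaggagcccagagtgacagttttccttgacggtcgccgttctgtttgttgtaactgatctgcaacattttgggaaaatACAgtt
SNORD45C: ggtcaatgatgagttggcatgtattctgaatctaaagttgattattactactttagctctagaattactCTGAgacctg
SNORD45A: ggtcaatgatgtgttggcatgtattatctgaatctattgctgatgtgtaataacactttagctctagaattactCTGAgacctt
SNORD45B: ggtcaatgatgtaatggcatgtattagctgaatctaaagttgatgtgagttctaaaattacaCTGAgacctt

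The 3 SNORD45 sequences share their first bases and the stretch around the D box, while the box H/ACA snoRNAs of SNHG12 are longer, at 130 to 137 bases, and unlike each other. SNHG12, a non-coding host gene, had a level of 171, 97.7 and 171 CPM in HEK WT and 22.4, 31.5 and 18.2 CPM in HEK UL1 KO. Every knockout library was below every wild-type library, and the log2 fold change was -2.61 (SE 0.351, adjusted p = 0.00133, edgeR). Its 4 snoRNAs fell by nearly the same amount, which is no separate result. In HEK WT replicate 1 SNORA61, SNORA16A, SNORA44 and SNORD99 had 38.9, 70.5, 50.4 and 6.67 CPM. Together these nearly make up the 171 CPM of the host. Reads of the snoRNAs may have been counted for the host as well, which was not tested. SNORA61 had 38.9, 16.4 and 37.5 CPM in HEK WT and 4.16, 5.55 and 3.55 CPM in HEK UL1 KO, which gave a log2 fold change of -2.81 (adjusted p = 0.000448, edgeR). The values of the other 3 were -2.64 for SNORA16A, -2.63 for SNORA44 and -2.38 for SNORD99. With total counts neither SNHG12 (adjusted p = 0.14, edgeR) nor SNORA61 (adjusted p = 0.161, edgeR) was called. RABGGTB, which encodes the beta subunit of the Rab geranylgeranyl transferase, fell from 80.5 ± 16.3 to 26.1 ± 3.30 CPM (SD, n = 3 each), a log2 fold change of -1.62 (adjusted p = 0.0131, edgeR). SNORD45A had 31.0, 15.4 and 21.3 CPM in HEK WT and 6.11, 5.68 and 3.67 CPM in HEK UL1 KO. The log2 fold changes of SNORD45A, SNORD45B and SNORD45C were -2.12, -2.65 and -2.31, each below that of the host.

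Over all snoRNAs and the related scaRNAs of Cajal bodies, 300 entries with distinct counts were tested, 56 were called lower and 0 higher by edgeR, and none was higher by DESeq2 or at an unadjusted p under 0.05. The median log2 fold change was -1.02, and 293 of the 300 were below 0, where 47.3% of all genes tested were. With total counts the median was -0.58, with 262 below 0, beside the shift of the all-gene median to 0.47. Without HEK WT replicate 3, 170 of these entries were called lower and 2 higher, where 13.3% and 12.5% of all genes were (edgeR). By class, 26 of 153 box C/D snoRNAs and 29 of 122 box H/ACA snoRNAs fell, with medians of -0.93 and -1.16. Without HEK WT replicate 1 these classes held 6 and 5 lower calls, of 64 over all genes tested in that fit (edgeR). With total counts 0 of either class were called, where 9 genes were lower in all (edgeR). Among 25 scaRNAs, SCARNA7 fell, with a log2 fold change of -1.24 (adjusted p = 0.033, edgeR), and their median was -0.69. The call of SCARNA7 held in 1 of the 6 fits that left out a library. Entries outside these 300 had too few counts or shared their counts with another entry, since the table lists 402 box C/D, 192 box H/ACA and 31 scaRNA entries.

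Of the 15 snoRNAs that take part in pre-rRNA cleavage, SNORA73A, SNORA73B and SNORD22 were called lower and the median was -0.94. In that order, these calls held in 5, 3 and 2 of the 6 fits that left out a library. SNORA73A and SNORA73B, the 2 genes of the U17 snoRNA, lie in SNHG3. SNORA73A had 128, 74.5 and 182 CPM in HEK WT and 45.2, 23.1 and 17.8 CPM in HEK UL1 KO, without overlap (log2 fold change -2.16, adjusted p = 0.0163, edgeR). The U3 genes, which make up most snoRNA counts, were not called one by one: SNORD3A had a log2 fold change of -0.76 (SE 0.798, adjusted p = 0.645, edgeR). The U3 entries ranged from -0.90 to -0.32, and as copies they may share reads, so single entries do not speak for U3 as a whole. The 15 snoRNAs, U3 included, summed to 124000, 103500 and 89820 CPM in HEK WT. In HEK UL1 KO they summed to 68070, 76790 and 47240 CPM, without overlap. The share of counts outside rRNA that fell on snoRNAs and scaRNAs was 9.46 ± 2.29% in HEK WT and 7.90 ± 2.42% in HEK UL1 KO (SD, n = 3 each). Taken without the TMM scaling of the calls, this share differed by less than the spread between libraries (-1.56 percentage points, exact two-sided permutation p = 0.5).

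A tested host gene on the same strand was found for 239 of the 300 entries, in 144 host genes. The other 61, of which 8 fell, were given no tested host, and for these 8 no gene model was used here. Of the 48 hosted entries that fell, 14 were among the 19 entries in hosts that also fell and 34 among the 220 in hosts that were not called. This split is not independent in SNHG12 and SNHG3, whose snoRNAs nearly make up the level of the host. In HEK WT, SNORA73A and SNORA73B averaged 128 and 322 CPM beside 463 CPM for SNHG3. Hosts called lower numbered 9, and none was called higher. Across the 144 hosts, the median change of the snoRNAs followed that of the host with a Spearman rho of 0.758, as a description across genes that share libraries and, in part, counted reads. Hosts changed less than their snoRNAs, with a median of -0.60 beside -1.07. In RPL3, which encodes a protein of the large ribosomal subunit, SNORD83A, SNORD83B and SNORD43 were all called lower, with log2 fold changes from -2.04 to -1.43. The host itself was at -0.78 (adjusted p = 0.270, edgeR), with overlapping CPM. Both tested snoRNAs of RACK1 fell as well (-1.36 and -1.39), while the host was at -0.97 (adjusted p = 0.185, edgeR). In RPL13A, where the host fell by 1.61 (adjusted p = 0.0424, edgeR), 2 of 4 snoRNAs were called lower. Of 31 tested genes known as non-coding snoRNA hosts, SNHG12, DANCR, SNHG7 and SNHG3 fell, with a median of -0.58 for the list.

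**Figure D2:**
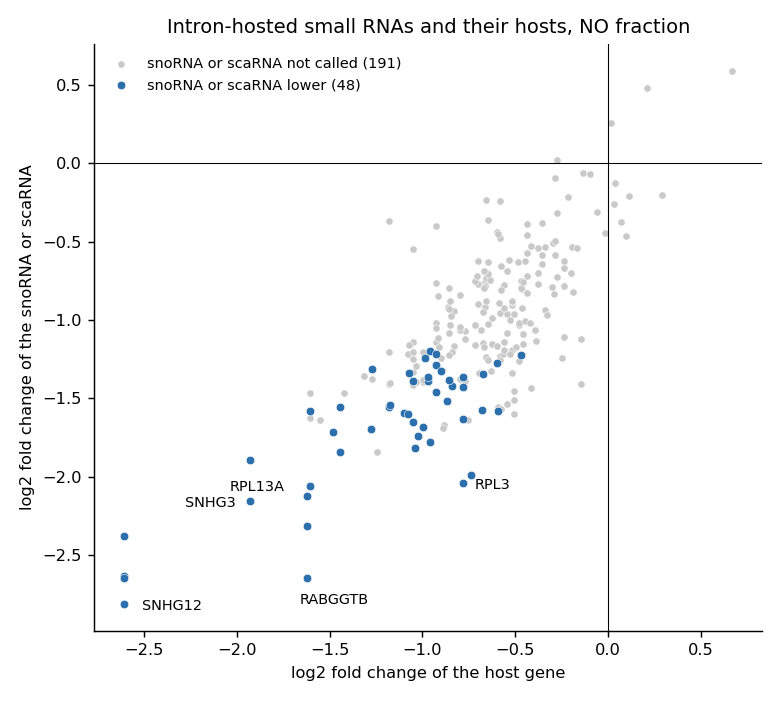
Log2 fold change of each snoRNA or scaRNA (vertical axis) against that of its host gene (horizontal axis) in the NO fraction, for the 239 entries with a tested host. Blue points are the 48 entries called lower and grey points those not called. The snoRNAs of SNHG12 and RABGGTB lie at the lower left, and those of RPL3 lie low at a host value of -0.78.

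The shortest genes had the lowest median. Of 735 tested genes with a RefSeq span of at most 300 bases, 71 were called lower and 0 higher, 9.66% beside 1.05% of all genes tested, and their median log2 fold change was -0.85. Outside snoRNAs, scaRNAs, tRNAs and mitochondrial genes, 5 of the 317 that remained were called lower and 0 higher (1.58%, edgeR), with a median of -0.67 and 287 below 0. The other span classes had medians of -0.11 (up to 10000 bases), 0.07 (up to 100000 bases) and 0.10 (over 100000 bases). By RefSeq gene type, 55 of 272 snoRNA genes were called lower (20.2%), 11 of 122 tRNA genes, 97 of 16870 protein-coding genes and 26 of 8468 long non-coding RNAs. Of the 152 higher calls, 82 were protein-coding genes, 43 were long non-coding RNAs and 22 had no RefSeq match. Over all genes tested, 0.437% were called higher and 0.616% lower. Among 88 distinct nuclear tRNA entries, which carry amino acids to the ribosome, 3 fell. They were TRM-CAT5-1 (-2.59), TRQ-CTG6-1 (-1.56) and TRG-GCC1-1 (-1.70), while the median was -0.88. None of 35 spliceosomal snRNA entries and none of 11 other abundant products of RNA polymerase III (7SL, 7SK, Y, vault, RNase P and MRP RNAs) was called by edgeR, with medians of -0.56 and -0.91. DESeq2 called 2 and 5 of them lower, beside 3.30% of all genes, and 8 and 6 of them were lower at an unadjusted p under 0.05 (edgeR).

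The largest rises, by the rule that asked for CPM without overlap and at least 50 counts on average per library, began with 3 genes that rest on 1 library each. ULK2, a kinase that starts autophagy, had 8.22, 9.74 and 7.62 CPM in HEK WT and 3001, 11.8 and 13.1 CPM in HEK UL1 KO. The 2 other knockout libraries were just above the wild-type values, and the log2 fold change of 6.89 (adjusted p = 0.0387, edgeR) reflects HEK UL1 KO replicate 1. LOC107984602 (5.48) and LOC105370447 (4.51) rest in the same way on HEK UL1 KO replicate 3, with 64.8 and 97.9 CPM there and at most 5.92 CPM in the other 5 libraries. DESeq2 gave none of the 3 an adjusted p.

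The rises that followed were even across libraries. CXCR4, the receptor of the chemokine CXCL12, had 0.842, 1.45 and 0.705 CPM in HEK WT and 11.9, 14.5 and 17.1 CPM in HEK UL1 KO. The log2 fold change was 3.89 (SE 0.337, adjusted p = 2.32e-05, edgeR), and the call also held with total counts (adjusted p = 0.00266, edgeR). SLFN11, a Schlafen protein that blocks stalled replication forks and sensitizes cells to DNA-damaging drugs, had 0.907, 0.456 and 2.20 CPM in HEK WT and 23.8, 20.2 and 28.6 CPM in HEK UL1 KO. It rose by 4.26 (SE 0.408, adjusted p = 5.69e-05, edgeR), though with total counts the adjusted p was 0.0521 (edgeR). Both genes were near the floor in wild-type cells and readily counted in every knockout library.

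CCN2, a secreted matricellular protein also known as CTGF, rose from 1.29, 1.29 and 0.837 CPM to 8.08, 8.81 and 12.2 CPM (log2 fold change 3.10). SPARC, another matricellular protein, which binds collagen, rose from 2.40, 0.761 and 2.07 CPM to 10.2, 9.90 and 14.9 CPM (2.71). LYPD1, a membrane-anchored protein that modulates nicotinic receptors, rose by 2.73. The zinc-finger genes ZNF718 (2.99) and ZNF544 (2.49) rose as well. ZNF718 had 3.24, 2.66 and 3.53 CPM in HEK WT and 26.4, 16.6 and 32.3 CPM in HEK UL1 KO, again without overlap. LOC107984581 (2.51) and the long non-coding RNA NALF1-IT1 (2.31) completed the 12 largest rises. Apart from the 3 genes that rest on 1 library, these genes were called in every fit that left out a library.

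The largest fall of the same rule, that of LOC102724624, was uneven within HEK WT, with 31.3, 491 and 1164 CPM there and 14.8, 19.1 and 7.10 CPM in HEK UL1 KO (log2 fold change -5.36, SE 0.872, adjusted p = 0.00589, edgeR). The genotypes did not overlap, but the wild-type libraries differed from each other by more than the lowest of them differed from the knockout. SNAI2, the transcription factor Slug of the epithelial-mesenchymal transition, had 11.9, 14.6 and 6.52 CPM in HEK WT and 0.697, 0.121 and 0.421 CPM in HEK UL1 KO. It fell by 4.54 (SE 0.444, adjusted p = 5.88e-05, edgeR) and was also called with total counts. CA2, carbonic anhydrase 2, which interconverts carbon dioxide and bicarbonate, had 56.3, 67.8 and 28.3 CPM in HEK WT and 4.16, 4.35 and 5.24 CPM in HEK UL1 KO, a fall of 3.47 (adjusted p = 5.88e-05, edgeR).

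TENM1, a teneurin of synaptic adhesion, had 424, 615 and 246 CPM in HEK WT and 54.5, 52.1 and 55.6 CPM in HEK UL1 KO (-2.99, adjusted p = 0.00142, edgeR). In SNAI2, CA2 and TENM1, HEK WT replicate 3 was the lowest wild-type library, and it still lay above all knockout libraries. INA, a neuronal intermediate filament protein, had 6.93, 6.92 and 4.32 CPM in HEK WT and 0.817, 0.724 and 0.542 CPM in HEK UL1 KO (-3.07). ZC3HAV1L, a paralog of the antiviral protein ZAP, fell by 3.14, from 7.51, 7.99 and 4.98 CPM to 0.986, 0.483 and 0.722 CPM.

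Long non-coding RNAs made up much of the remainder. PURPL, a p53-regulated RNA that suppresses basal p53, had 29.4, 37.7 and 20.8 CPM in HEK WT and 3.58, 1.75 and 3.19 CPM in HEK UL1 KO (-3.34, adjusted p = 5.88e-05, edgeR). LOC105379618 and LINC01687, both on chromosome 21, had log2 fold changes of -3.25 and -3.23, and LOC102723724 on chromosome 6 had -3.10. LINC01687 had 32.5, 43.2 and 35.4 CPM in HEK WT and 4.93, 3.38 and 3.43 CPM in HEK UL1 KO. RNU6-49P, a U6 pseudogene whose reads may be shared with U6 copies, fell by 2.82, and SNORA61 closed the 12 largest falls.

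**Figure D3:**
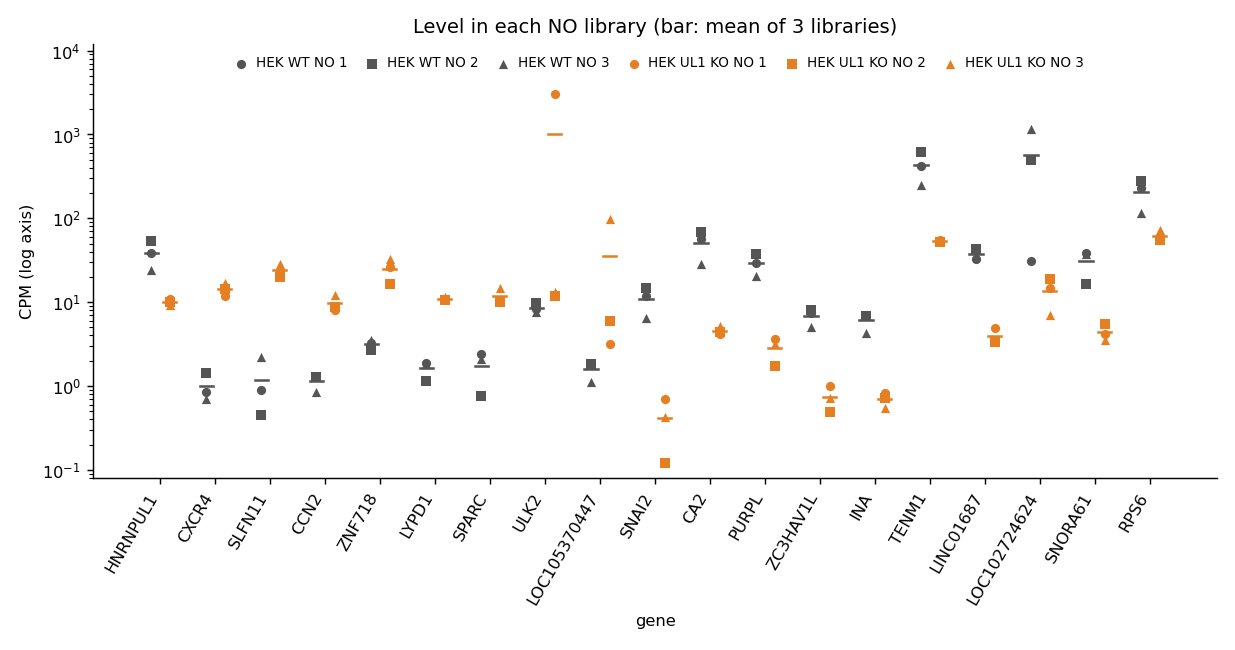
Level of 19 genes in CPM on a log axis in each NO library, grey for HEK WT and orange for HEK UL1 KO, with circles, squares and triangles for replicates 1, 2 and 3 and a bar at the mean of 3 libraries. In each of the 19 genes all 3 knockout libraries lie on 1 side of the wild-type libraries, and in ULK2 and LOC105370447 1 knockout library lies far above the rest.

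Proteins that build or make the ribosome were then examined as lists. Of 79 cytosolic ribosomal protein genes, RPL10, RPS6 and RPL13A fell and none rose (edgeR), and 76 were below 0 with a median log2 fold change of -0.60. DESeq2 called 16 lower, beside 3.30% of all genes. Without HEK WT replicate 3 edgeR called 52 lower, beside 13.3% of all genes, with none of the list higher in either. With total counts 45 were below 0 and the median was -0.06, still below the all-gene median on that scale. RPS6, the small-subunit protein phosphorylated by S6 kinase, had 233, 276 and 116 CPM in HEK WT and 59.7, 54.5 and 71.8 CPM in HEK UL1 KO (-1.75, SE 0.367, adjusted p = 0.0323, edgeR). The genotypes were apart, but the call was lost in 5 of the 6 fits that left out a library. RPL10 (-1.45) and RPL13A (-1.61) held in 1 of those 6 fits each as well.

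Of 25 genes of the RNA polymerase I machinery, POLR1E, the subunit PAF53, fell (-1.28, adjusted p = 0.0391, edgeR), with a median of -0.47 for the list. None of 52 assembly factors of the 40S subunit and none of 49 of the 60S subunit was called, with medians of -0.49 and -0.46. DESeq2 called 5 and 2 of them lower, beside 3.30% of all genes. Without HEK WT replicate 3 the counts of these lists were 32 and 25, beside 13.3% of all genes. On total counts their medians were 0.02 and 0.07, so the direction of these lists turned with the scaling, while they stayed below the median of all genes. At an unadjusted p under 0.05, 12 genes of each list were lower (edgeR).

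Genes of the proteins that the study tested or found bound to hnRNP UL1 were mostly not called by edgeR. FBL, the methyltransferase of box C/D particles, was at -0.77 (adjusted p = 0.230, edgeR), with 22.3, 30.7 and 13.1 CPM in HEK WT and 10.4, 14.1 and 14.2 CPM in HEK UL1 KO, which overlap. RPA2, the middle subunit of the single-strand binding protein RPA, was at -1.12 (adjusted p = 0.0596, edgeR) with no overlap, and XRCC1, a scaffold of single-strand break repair, was at -0.90 (adjusted p = 0.128, edgeR). DESeq2 called both lower (adjusted p = 0.00834 and 0.048), and both were called lower in CN (-1.07 and -0.63, edgeR). The others were RPS15 (-0.51), RRP1B (-0.52), RBM28 (-0.49), H2AX (-0.74), CHEK1 (-0.42), RPS3A (0.10), BRIX1 (0.01) and NUFIP2 (0.01), with adjusted p values from 0.309 to 0.992 (edgeR). Without HEK WT replicate 3, FBL, RPA2, XRCC1, RPS15, RRP1B, RBM28 and H2AX were called lower (edgeR), where 13.3% of all genes were. CHEK1, RPS3A, BRIX1 and NUFIP2 were not called in that fit. In CN, FBL, RRP1B and RBM28 were called lower too (edgeR). For RPS15, RRP1B, RBM28 and CHEK1 the sign turned with total counts, and for RPS3A, BRIX1 and NUFIP2 with other settings. None of 27 hnRNP and FET protein genes and none of 32 DNA damage response genes was called, with medians of -0.42 and -0.44 and, on total counts, 0.12 and 0.09. At an unadjusted p under 0.05, 5 and 9 of them were lower and 0 and 1 higher (edgeR), and DESeq2 called 0 and 3 lower.

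The 37 mitochondrially encoded genes had a median of -0.93, with 36 below 0. The 4 that fell, TRNY, TRNQ, TRNC and TRNS1, are mitochondrial tRNA genes. TRNC had 36.0, 22.9 and 8.15 CPM in HEK WT and 2.67, 7.91 and 5.54 CPM in HEK UL1 KO, so that HEK WT replicate 3 was close to the knockout range. Mitochondrial genes took 35.0 ± 7.81% of the counts outside rRNA in HEK WT and 29.0 ± 6.96% in HEK UL1 KO (SD, n = 3 each), a difference of -6.08 percentage points that did not exceed the spread (exact two-sided permutation p = 0.5). The shares were taken without TMM scaling. Mitochondrial transcripts are made in mitochondria, outside the nucleus, and all 6 NO libraries held them.

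Of 50 tested replication-dependent histone genes, 48 were below 0 and the median was -0.76, or -0.21 with 40 below 0 on total counts. H3C7 fell, and H2AC8 and H2BC8, the 2 above 0, rose (edgeR). DESeq2 called 3 lower and 2 higher, 28 were lower and 2 higher at an unadjusted p under 0.05, and without HEK WT replicate 3 the counts were 44 and 2 (edgeR). Over all genes, 3.30% were lower and 1.03% higher by DESeq2, and 13.3% and 12.5% without that library. H2AC8 had 3.56, 4.11 and 1.32 CPM in HEK WT and 7.04, 14.5 and 10.1 CPM in HEK UL1 KO (1.84, adjusted p = 0.0293, edgeR). H3C7 was low throughout, at 1.68, 1.45 and 1.01 CPM against 0.192, 0.060 and 0.241 CPM (-2.96, adjusted p = 0.0113, edgeR). Histone genes of a kind are close in sequence, and reads could be split between them.

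Zinc-finger genes, mostly transcriptional repressors of repeats, had 6 of 543 called higher and 4 lower, and a median of -0.09. Over all genes tested, 0.437% were called higher and 0.616% lower. Besides ZNF718 and ZNF544, ZFP82 rose (1.90) and ZNF22 fell (-2.46). Among 29 interferon response and Schlafen genes, SLFN11, SLFN13 and PARP14 rose and ZC3HAV1L fell, with a median of 0.35. SLFN13, an RNase of the Schlafen family, rose by 2.02, from 0.453, 0.532 and 1.63 CPM to 3.03, 4.41 and 3.97 CPM. PARP14, a mono-ADP-ribosyltransferase, rose by 1.81, from 1.81, 1.29 and 2.38 CPM to 6.49, 5.98 and 7.16 CPM. The other 25 members were not called by edgeR, and DESeq2 called 4 of the list higher and 1 lower. Without HEK WT replicate 3, 11 of the list rose and 1 fell (edgeR), where 12.5% and 13.3% of all genes did.

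The remaining lists held few calls. Of 27 p53 targets PURPL fell and none rose. Of 17 genes of the epithelial-mesenchymal state SNAI2 and VIM fell, VIM (vimentin) from 81.5, 89.2 and 54.3 CPM to 21.4, 26.02 and 29.1 CPM (-1.56, adjusted p = 0.0207, edgeR). Of 15 neuronal genes INA fell, and INA was also the only one of the 10 HEK293 line markers that edgeR called. DESeq2 called 2 of these markers lower, and without HEK WT replicate 3 edgeR called 3 higher and 5 lower, where 12.5% and 13.3% of all genes were. None of 13 nuclear long non-coding RNAs and none of 86 olfactory receptor genes was called by edgeR, where 3 were lower and 1 higher at an unadjusted p under 0.05, and DESeq2 called 2 of the former lower. All 42 clustered protocadherin genes, which encode cell-surface recognition proteins of neurons, had a log2 fold change above 0, from 0.32 to 1.51. PCDHAC2 was called (1.51, adjusted p = 0.0387, edgeR), and 34 were called higher without HEK WT replicate 3, where 12.5% of all genes were. The summed CPM of the protocadherins was 216, 201 and 314 in HEK WT and 389, 397 and 413 in HEK UL1 KO, so replicate 3 lay between the other wild-type libraries and the knockout libraries. The olfactory receptors, genes of the nasal epithelium, summed to 121, 95.8 and 182 CPM in HEK WT and 155 to 167 CPM in HEK UL1 KO, with HEK WT replicate 3 the highest. The part of these levels in the calls was not tested.

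**Figure D4:**
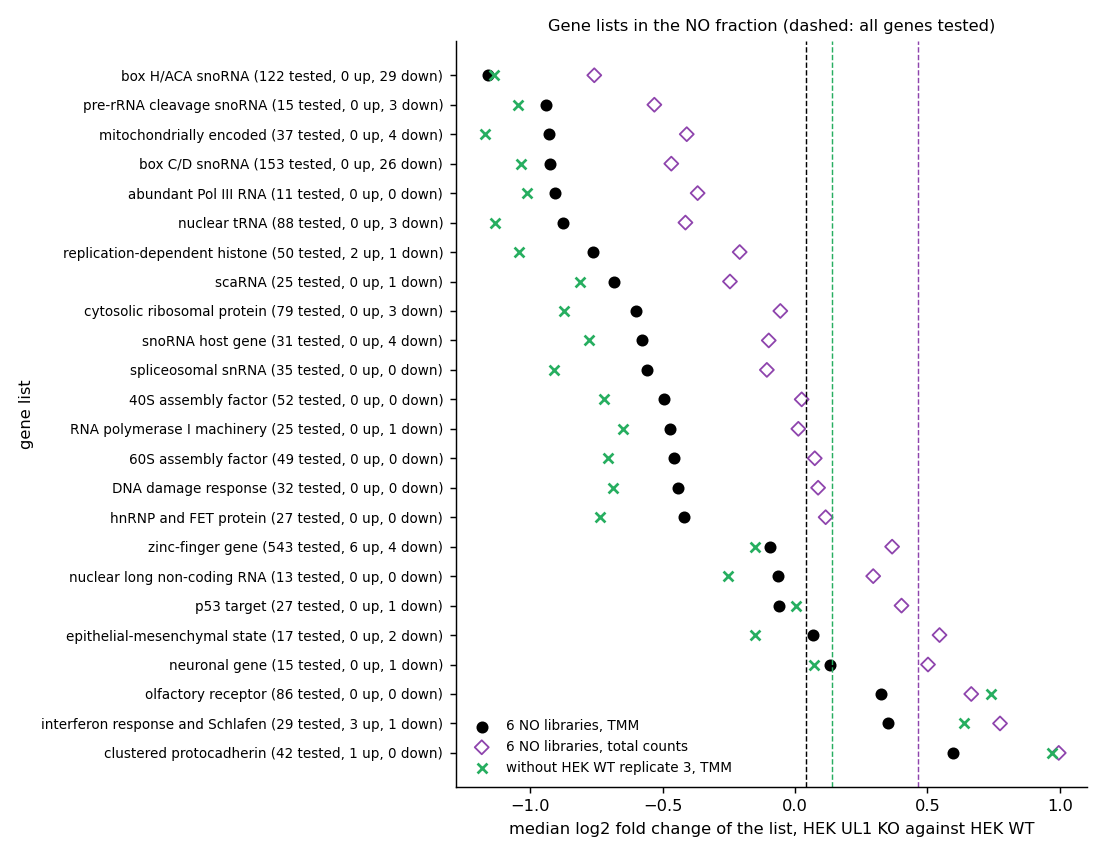
Median log2 fold change of each gene list in the NO fraction (horizontal axis), with the number of genes tested and called beside its name. Black points are the 6 libraries with TMM, open diamonds the same with total counts and green crosses the 5 libraries without HEK WT replicate 3, and dashed lines are the medians of all genes tested at 0.04, 0.47 and 0.14. The box H/ACA snoRNAs lie at -1.16, -0.76 and -1.14 on the 3 scales, the mitochondrially encoded genes at -0.93, -0.41 and -1.17, and the clustered protocadherins lie furthest to the right on each.

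Called genes, 0.437% of all genes tested in the higher and 0.616% in the lower direction, were unevenly spread over the chromosomes. Chromosome 4 held 53 of the 152 higher genes and 5 lower genes among 1352 tested, with a median of 0.37. Chromosome 9 held 29 lower and 0 higher genes among 1218, and chromosome 1 held 47 lower and 1 higher among 3007. Among 309 windows of 10 Mb with at least 20 tested genes, the window from 180 to 190 Mb of chromosome 4 had the highest median, 1.42. There 33 of 90 genes were called higher and 0 lower, and 86 were above 0. In the CN fraction the median of the same window was 1.26, with 57 of 64 tested genes called higher. The window was singled out after its values were seen, as were the genes named in it. SORBS2, a cytoskeletal adaptor, rose from 10.9 ± 3.97 to 49.1 ± 1.71 CPM (SD, n = 3 each; log2 fold change 2.16, adjusted p = 0.00199, edgeR). TLR3, a receptor of double-stranded RNA, rose by 2.46, and IRF2, an interferon regulatory factor, by 1.46.

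On chromosome 1 the window from 20 to 30 Mb held 13 lower genes, among which were SNHG3 and SNHG12 with 6 of their snoRNAs. RABGGTB, its 3 snoRNAs and the neighbouring ACADM and MSH4 made up the 6 of the window from 70 to 80 Mb. The window from 170 to 180 Mb held 8, all of them snoRNAs. On chromosome 9, RPS6, HAUS6, PLIN2, RRAGA and DENND4C fell in the window from 10 to 20 Mb. PLIN2, a coat protein of lipid droplets, fell by 2.38, from 4.51 ± 0.716 to 0.863 ± 0.273 CPM (SD, n = 3 each; adjusted p = 0.00222, edgeR). No gene was called in 165 of the 309 windows.

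**Figure D5:**
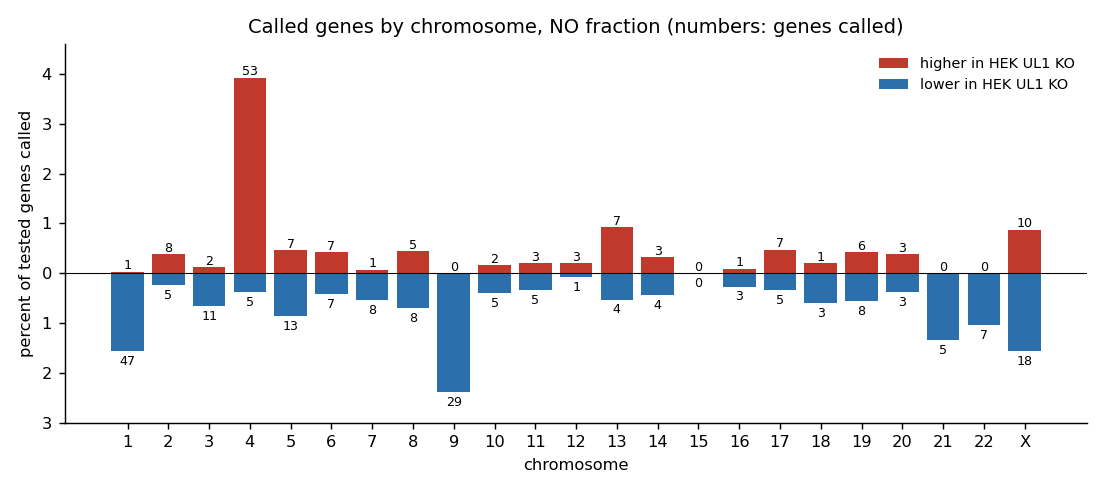
Percent of the tested genes on each chromosome that were called higher (red, upward) or lower (blue, downward) in HEK UL1 KO in the NO fraction, with the number of genes on each bar. Chromosome 4 has 53 higher genes, and chromosomes 1 and 9 have 47 and 29 lower genes.

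The NO values were set beside those of the CN fraction, which holds the rest of the cell and shares no library with NO. In CN 10298 of 27287 genes tested were called (37.7%), 15.5% higher and 22.2% lower. Of the 152 genes higher in NO, 143 were tested in CN, 135 were called higher there and 0 lower. Of the 214 lower in NO, 202 were tested in CN, 182 were called lower there and 4 higher. These 4 were LOC102724624, GRAPL-AS1 and SLC47A2 on chromosome 17 and the microRNA gene MIR3648-2, with log2 fold changes from 1.80 to 3.47 in CN. HNRNPUL1 changed by -1.83 in CN beside -1.95 in NO, CXCR4 by 4.18 beside 3.89 and SNAI2 by -4.98 beside -4.54. The difference between the effects of the 2 fractions was tested in one fit of all 12 libraries, in which NO and CN libraries were not paired. It was called for 40 of 36022 genes (0.111%), 29 above 0 (0.0805%) and 11 below 0 (0.0305%) as NO minus CN, beside 1236 at an unadjusted p under 0.05 (3.43%) and 81 by DESeq2 (0.268%). For 39 of the 40 the effect was smaller in size in NO. Of the 40, 20 were also called in NO itself.

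SLFN11 shows the pattern among the higher genes. It had 0.240, 0.242 and 0.051 CPM in the CN libraries of HEK WT and 44.03, 54.9 and 46.0 CPM in those of HEK UL1 KO, and its log2 fold change was 8.02 beside 4.26 in NO. The HEK WT values in CN are 5, 5 and 1 counts, near the floor, so the size of this change rests on few counts. Wild-type levels were lower and knockout levels higher in CN than in NO. LINC01036 shows it among the lower genes, with 112, 111 and 117 CPM in CN of HEK WT and 3.65, 3.88 and 4.70 CPM in CN of HEK UL1 KO (-4.81), beside 43.1, 56.6 and 39.3 CPM and 10.7, 7.79 and 12.2 CPM in NO (-2.18). OXCT1, an enzyme of ketone body use, changed by -3.61 in CN and by -1.25 in NO. Among the snoRNAs, SNORA61 was at -2.97 in CN and -2.81 in NO, SNORD45A at -2.07 and -2.12 and SNORA65 at -0.36 and -1.78, and the difference between fractions was called for none of the 3 (edgeR).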

How the data were processed

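The authors sequenced total RNA without rRNA depletion (CORALL Total RNA-Seq kit, single reads of 75 bases), checked reads with FastQC 0.11.4, trimmed them with Cutadapt 3.7, aligned them to GRCh38 with STAR 2.7.8, which reported as many as 20 positions for a read, and used featureCounts to count genes. The counting options, the strand setting and the annotation version are not given in the sources used here, so genes with near-identical copies or overlapping neighbours may share reads. The deposited values are raw counts per gene, 1 table per fraction, with all columns matched to samples by their labels.

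Entries of rRNA were dropped, and genes were kept by filterByExpr. HEK UL1 KO NO (n = 3) was tested against HEK WT NO (n = 3) with the quasi-likelihood test of edgeR 4.0.16 in R 4.3.3 after TMM scaling, called at an adjusted p under 0.05. The standard error was taken from the F statistic. Shares were compared with exact permutation tests. CN was fitted alike, and the interaction of genotype and fraction in 1 fit of 12 libraries. Procedures were tested on simulated data. DESeq2 1.42.0 was an alternative, among 16 settings that include leaving out each library. An adjusted p that DESeq2 did not give was left out. Libraries held 37141666 to 83019079 counts, rRNA included. Averaged over genes outside rRNA, the libraries of a genotype differed by more than sampling noise (chi-square per gene at least 28.4). This average does not speak for genes with few counts. In the HEK UL1 KO NO libraries H3C7 had 8, 1 and 4 counts and SNAI2 had 29, 2 and 7.

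The genes named are HNRNPUL1, the 12 largest rises and falls and the 5 smallest p in each direction (called, CPM without overlap, a mean of at least 50 counts), up to 4 called members by smallest p in each list, the genes of proteins the study tested or found bound, and up to 6 genes by smallest p whose effect differs between fractions. Members and gene lists were chosen with earlier results of these data known, and the patterns for snRNA and zinc-finger genes were narrowed after the table's symbols were seen. Of the genes tested, 29722 matched RefSeq (GRCh38.p14) by symbol. A few genes that the rule names are not reported here. Figures were drawn with matplotlib 3.10.9.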

Additional observations from a re-analysis of the deposited data

Results flagged for a closer look

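For 40 genes the genotype effect in NO differed from that in CN by the test of the difference itself (adjusted p under 0.05, edgeR). Of the genes named, the difference (log2 fold change in NO minus that in CN) was -3.77 for SLFN11, -2.43 for ZNF718, -3.22 for ZNF544, -2.56 for ZFP82 and -2.32 for PARP14, all of which rose in both fractions and rose less in NO. With total counts 0 differences below 0 were called (edgeR), so none of these 5 genes was called there. It was 2.82 for LOC105379618, 2.10 for LINC01687, 3.30 for ZC3HAV1L, 2.40 for OXCT1, 2.68 for LINC01036, 2.26 for LINC02315 and 2.7 for LINC00470, all of which fell in both fractions and fell less in NO. In ZC3HAV1L, for example, the CN libraries had 24.5, 20.4 and 19.3 CPM in HEK WT and 0.221, 0.269 and 0.272 CPM in HEK UL1 KO. The latter are 4, 5 and 4 counts, near the floor.

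LOC102724624 was the exception. Its difference was -7.24, with a fall of 5.36 in NO and a rise of 1.85 in CN, where its levels were 0.384, 0.435 and 0.461 CPM in HEK WT and 1.77, 1.78 and 1.09 CPM in HEK UL1 KO. The NO libraries spread widely, as the values of this gene in the results above show.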

How the results depend on the processing

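The numbering of replicates did not pair the NO libraries of the 2 genotypes: the departures from the genotype's mean in libraries with 1 number correlated at -0.169, -0.215 and -0.415, and 0 libraries correlated best with their own number. Whether NO and CN libraries of 1 genotype and number came from the same cells was not checked. With a replicate block 283 genes were called (136 higher, 147 lower), HNRNPUL1 changed by -1.88, and 29 genes differed between fractions (22 above 0, 7 below 0). Calls numbered 1104 with DESeq2 (262 higher, 842 lower), 2290 with all 12 libraries in one fit (573 and 1717), 1060 without a filter (346 and 714), 158 with at least 10 counts in every library (79 and 79) and 27 with total counts (18 and 9). Leaving out 1 library gave 129 to 9274 calls (52 to 4509 higher, 64 to 4765 lower). Of these fits only the one without HEK WT replicate 3 raised the number of calls, and the others gave 129 (HEK WT 1), 200 (HEK WT 2), 239 (HEK UL1 KO 1), 168 (HEK UL1 KO 2) and 233 (HEK UL1 KO 3). The genes that differed between fractions, 29 above and 11 below 0 on the signed scale, numbered 81 with DESeq2 (51 and 30), 22 with at least 10 counts (19 and 3), 18 with total counts (18 and 0) and 22 to 53 without 1 library (15 to 34 and 5 to 25). HNRNPUL1 ranged from -2.20 to -1.68 without 1 library and was at -1.39, no longer called, with total counts. The share differences without 1 library ranged from -10.1 to -1.74 points (mitochondrial), -2.84 to -0.164 (snoRNA and scaRNA) and -1.93 to 2.97 (rRNA). Among the genes named, signs turned in genes that were not called. With total counts RPS15 was at 0.0251, RRP1B at 0.00507, RBM28 at 0.0574 and CHEK1 at 0.129. BRIX1 and NUFIP2 were at -0.0761 and -0.0744 with DESeq2's size factors, -0.0931 and -0.0908 with DESeq2, -0.0148 and -0.0136 without a filter and -0.0409 and -0.0392 with rRNA kept in the scaling. Without 1 library BRIX1 ranged from -0.324 to 0.253, NUFIP2 from -0.282 to 0.191 and RPS3A from -0.194 to 0.253, and RPS3A was at -0.00228 with DESeq2. The causes were not tested. Averaged over genes, counting error was small beside the spread of the libraries of a genotype (chi-square per gene at least 28.4). This does not hold for every gene with few counts.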

Other observations

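Several genes with the largest values in NO owed them to single libraries, and these lay close together. After the values were seen, genes were counted in which the highest of the 6 libraries had at least 1000 counts and at least 20 times the median CPM of the other 5. There were 29 in NO, of which 23 had a RefSeq position, and 14 of these lay between 18 and 20 Mb of chromosome 17, where 64 tested genes lie. In CN there were 16 such genes, all with a position, and 0 of them lay in that window. The rule also passes genes that are high in more than 1 library, so these counts are not of single-library genes alone. Among those in CN, SLFN11, ZNF718, LINC01687, LINC01036 and TENM1 were high in all 3 libraries of 1 genotype. In NO, B9D1 had 1416 and 881 CPM in HEK UL1 KO replicates 1 and 3. The window also holds the SNORD3 genes of U3 snoRNA, among them SNORD3A from 19188016 to 19188232. SLC47A2 had 1548 CPM in HEK WT replicate 3 and at most 3.87 CPM elsewhere. GID4 had 1155 CPM in HEK WT replicate 1 and at most 6.73 CPM elsewhere. FBXW10 had 881 CPM in HEK UL1 KO replicate 1 and at most 11.9 CPM elsewhere. PRPSAP2 had 2998 and 3798 CPM in HEK WT replicates 1 and 3 and 35.8 to 285 CPM in the others. Of the 29 genes, 9 were called in NO, ULK2, LOC102724624 and B9D1 among them. SLC47A2 (log2 fold change -7.27) and GRAPL-AS1 (-6.11) were called lower although their CPM overlapped, and SLC47A2 was at 0.63 without HEK WT replicate 3.

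Homeobox genes of the HOXA cluster, which set position along the body axis, were also looked at after their values were seen. Of 11 tested HOXA genes, HOXA3, HOXA5, HOXA6 and HOXA9 were called lower and none higher, with a median log2 fold change of -1.15. Over all genes tested, 0.616% were called lower and 0.437% higher. HOXA3 fell from 44.6 ± 8.24 to 15.7 ± 1.77 CPM (SD, n = 3 each), a log2 fold change of -1.51 in NO beside -1.68 in CN. In the HOXB and HOXD clusters HOXB6 (-1.26) and HOXD13 (-1.45) fell, of 9 and 7 tested, and none of 9 HOXC genes was called by edgeR or DESeq2 (1 at an unadjusted p under 0.05). ZIC2, a zinc-finger factor of early neural development, fell by 1.44.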
